A study of Caenorhabditis elegans with 2 samples.

Results

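The actin genes of Caenorhabditis elegans are 5 closely related genes, act-1 to act-5, which the deposited table lists under those names with the sequence names T04C12.6, T04C12.5, T04C12.4, M03F4.2 and T25C8.2. They were taken by name alone, and all 5 were found among the 13601 genes listed. The tails were profiled with mTAIL-seq, in which RNA 3′ ends are captured and their poly(A) length is read from sequencing signals. The worms were whole animals of the wild-type N2 Bristol strain, fed OP50 bacteria at 25 °C until the 29 h time point, in the last larval stage (L4). There was 1 group of 2 biological replicates with no special treatment, and the table pools both replicates. Every value below is therefore a value of the pool, with no replicate error and no test. The intervals cover counting error alone, and would be too narrow if PCR copies were counted.

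Actin is the protein of thin filaments in muscle and of the cell cortex, and it assembles from single subunits into filaments. In the worm, act-1 to act-4 encode muscle and general actins, with act-2 also known for its role in the divisions of the early embryo. act-5 encodes a separate actin of the microvilli of the intestine. A poly(A) tail is added to most messenger RNAs in the nucleus, is covered in the cytoplasm by poly(A)-binding proteins set side by side, and is shortened by deadenylases before decay. In NCBI's RefSeq table for the WBcel235 assembly, act-3, act-2 and act-1 are consecutive protein-coding genes on chromosome V, act-4 lies on X and act-5 on III. The sources used here do not name the assembly behind the deposited table, so no coordinates are printed. The coding sequences are near-identical, so the division of tags among the genes is uncertain.

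Each tag is 1 tail call read from an RNA 3′ end, and the table holds 17376490 tags. The sources used here do not say whether PCR copies were collapsed, so 1 tag need not be 1 RNA molecule. The 8803 genes with at least 100 tags had a median of 80 nt over their own medians, called here the median over genes, and the middle 50% of them lay between 69 and 91 nt. All 5 actin genes passed that minimum by a wide margin. Of 17 marker genes for muscle, intestine, hypodermis, spermatogenic germ line and yolk, 16 were found, among them the body wall muscle myosin gene unc-54 with 38818 tags and the intestinal protease gene asp-1 with 75043 tags. These 2 had the most tags among the markers of their tissues. Others had far fewer, such as myo-3 of body wall muscle with 3222 and elt-2 of the intestine with 196. The marker not found was col-19, of the hypodermis, whose other markers dpy-7 and rol-6 had 752 and 1525 tags. Because whole worms were used, fewer cells of a type and less RNA per cell cannot be told apart.

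The 5 genes together had 104129 tags, or 0.599% of all tags. act-3, act-4 and act-1 were abundant, and act-5 and act-2 less so. act-3 had 33367 tags, or 1920 tags per 1000000 tags (95% exact Poisson interval 1900 to 1941). act-4 had 29720 tags, or 1710 per 1000000 (1691 to 1730). act-1 had 25537 tags, or 1470 per 1000000 (1452 to 1488). Neighbours in this order did not overlap in their intervals. By tag number act-3 ranked 99 and act-4 ranked 107 in the table. The intestinal gene act-5 followed with 7831 tags, or 451 per 1000000 (441 to 461), and act-2 was last with 7674 tags, or 442 per 1000000 (432 to 452). These last intervals overlapped, so act-5 and act-2 did not differ in level beyond counting error. Of all actin tags 32% were from act-3, 28.5% from act-4, 24.5% from act-1, 7.52% from act-5 and 7.37% from act-2.

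Tail lengths differed widely inside this small family. The shortest median was that of act-1, at 52 nt (95% exact order-statistic interval 51 to 52 nt). act-3 had a median of 58 nt (57 to 58 nt). act-2 and act-5 shared a median of 66 nt, with intervals of 65 to 67 nt and 66 to 67 nt. act-4 stood apart at 87 nt (86 to 87 nt), and its distance from the nearest other actin median, 21 nt, was larger than the distance of 14 nt between act-1 and the shared median of act-5 and act-2. The SD over tags was 26.8 nt for act-1, 26.5 nt for act-2, 32 nt for act-3, 36.4 nt for act-4 and 28.3 nt for act-5, so each distribution was broad. Along the deposited list of a gene's tags, the medians of 10 equal stretches spanned between 11 nt in act-5 and 42.5 nt in act-4. The mean tails were 56.6, 67.7, 62.0, 88.6 and 69.7 nt for act-1 to act-5, in the same order as the medians except that act-5 and act-2 no longer tied.

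**Figure D1:**
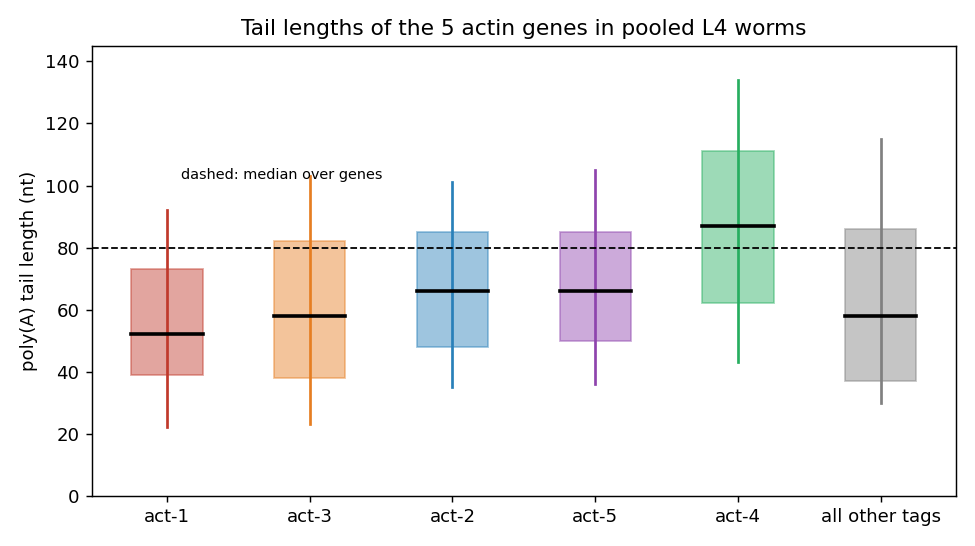
Tail length in nt (vertical axis) for the tags of act-1, act-3, act-2, act-5 and act-4 and for the tags of all other genes together. Black bars are medians, boxes run from the 25th to the 75th percentile, thin lines from the 10th to the 90th percentile, and the dashed line is the median over genes, 80 nt. Only act-4, with its median at 87 nt, lies above the dashed line; act-1 is lowest at 52 nt.

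Against the median over genes, 4 of the 5 actin genes (act-1, act-2, act-3 and act-5) had intervals wholly below it. Of all 8803 genes 36.7% did so. The remaining gene, act-4, had its interval wholly above it, as did 35% of all genes. Over all tags of the family the median was 66 nt (65 to 66 nt), against 58 nt (57 to 58 nt) for the tags of all other genes, which are weighted towards the most abundant genes.

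Abundant genes in this table tend to have short tails, and act-4 was an exception. Among the 106 other genes with at least as many tags as act-4, 104 had a shorter median, 1 had the same median and 1 had a longer one. The longer one was F59D12.2, at 100 nt with 50264 tags, named after its values were seen. The median of those 106 gene medians was 44 nt. For act-3, 86 of 98 genes with at least as many tags were shorter, and 11 were longer. For act-1 84 of 114 were shorter, for act-5 195 of 302 and for act-2 199 of 309. All 5 actin medians thus lay above the median of the genes at least as abundant as themselves, which was 43 nt for act-3, 44 nt for act-1, 57.5 nt for act-5 and 58 nt for act-2. Since tails tend to shorten with abundance, a comparison with more abundant genes alone favours this outcome for any gene. The share of all genes that pass it was not computed, so the count is not read as a trait of the family.

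**Figure D2:**
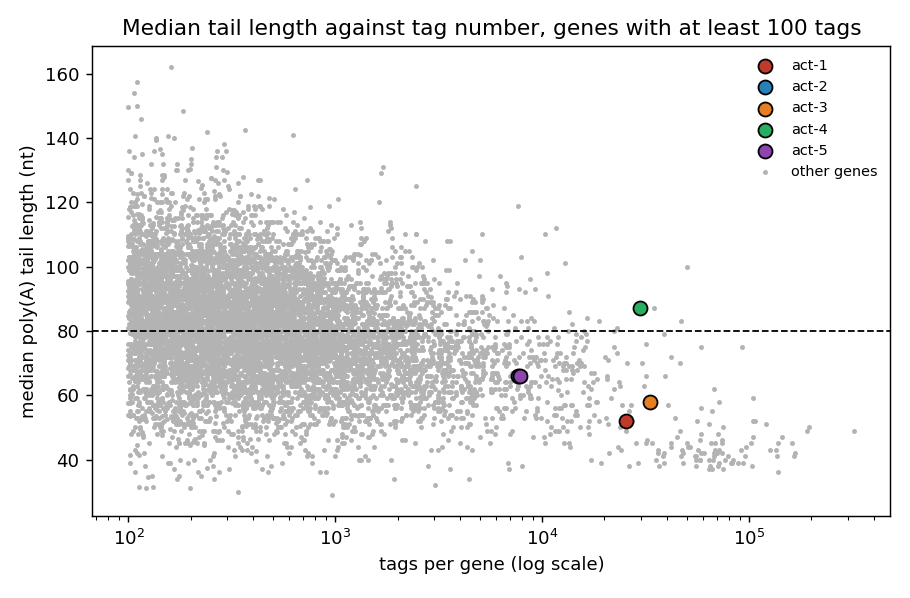
Median tail length in nt (vertical axis) against tags per gene (horizontal axis, log scale) for genes with at least 100 tags. Coloured points are the 5 actin genes, grey points the other genes, and the dashed line is the median over genes, 80 nt. act-4, with 29720 tags at 87 nt, lies above nearly all grey points of similar tag number; act-2 and act-5 nearly coincide.

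The pairs of genes were compared by the difference of their medians, for all 10 pairs, with a conservative interval of at least 95% built from a stricter interval for each gene. In 9 of 10 pairs that interval lay on 1 side of 0. The share of other gene pairs of similar tag number that would do so was not computed. With this many tags the intervals were narrow, so the count is not read as a trait of the family. act-4 exceeded act-1 by 35 nt (34 to 36 nt), act-3 by 29 nt (28 to 30 nt) and act-2 by 21 nt (19 to 22 nt). act-5 was 14 nt above act-1 (14 to 16 nt) and 8 nt above act-3 (8 to 10 nt), and the difference act-5 minus act-4 was -21 nt (-21 to -19 nt). act-2 was 14 nt above act-1 (13 to 16 nt), and act-3 minus act-2 was -8 nt (-10 to -7 nt). The smallest of the 9 was act-3 over act-1, at 6 nt (5 to 7 nt). With tails of at least 30 nt only, act-5 minus act-3 was 2 nt and act-3 minus act-2 was -2 nt, both within counting error. The other differences exceeded counting error within the pool, and their spread between libraries is unknown.

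The remaining pair was act-5, the intestinal actin gene, and act-2. Their medians differed by 0 nt (-1 to 2 nt). The whole distributions were also close: their largest cumulative gap was 3.56 percentage points, at 42 nt, where 14.7% of act-5 tags and 18.2% of act-2 tags were as short or shorter. Their 10th, 25th, 75th and 90th percentiles were 36, 50, 85 and 105 nt for act-5 and 35, 48, 85 and 101 nt for act-2. The mean of act-5 exceeded that of act-2 by 1.93 nt, which was more than counting error, so the pair was not identical. Every other pair had a larger cumulative gap, from 9.48 points for act-3 and act-1 to 41 points for act-4 and act-1.

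The 2 abundant genes of the chromosome V cluster, act-3 and act-1, were alike at the short end and differed at the long end. The 10th percentile was 23 nt in act-3 and 22 nt in act-1, and the 25th was 38 and 39 nt. The 75th percentile was 82 nt in act-3 and 73 nt in act-1, and the 90th was 103 and 92 nt. Tails over 100 nt made up 11.3% of act-3 tags (95% Wilson interval 10.9 to 11.6%) and 4.84% of act-1 tags (4.59 to 5.11%). act-2, which lies between them on the chromosome, did not share this short end, with its 10th percentile at 35 nt.

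Short tails were concentrated in act-3 and act-1. Tails under 30 nt made up 16.9% of act-3 tags (16.5 to 17.3%) and 17.2% of act-1 tags (16.7 to 17.6%). The shares were 5.17% in act-2 (4.70 to 5.69%), 4.80% in act-5 (4.35 to 5.30%) and 2.77% in act-4 (2.59 to 2.96%), against 9.32% in the tags of all other genes. Of all actin tails under 30 nt, 48.5% were from act-3 and 37.8% from act-1.

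Long tails were concentrated in act-4. Tails over 100 nt made up 34.3% of act-4 tags (33.7 to 34.8%), 11.98% of act-5 tags (11.3 to 12.7%) and 10.2% of act-2 tags (9.57 to 10.9%), against 16.2% of the tags of all other genes. Of all actin tails over 100 nt, 60.3% were from act-4. The longest length that was called, 231 nt, held 0.390% of act-4 tags and between 0.0652% and 0.153% of the tags of the other 4 genes, so the ceiling of the assay touched few actin tails.

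By the form of their distributions, act-1 and act-3 differed from the other 3 actin genes. Maxima were read from the 5 nt running mean, between 15 and 110 nt, and kept where they rose above the surrounding troughs by at least 10% of their own height. That rule was chosen after the data were seen. act-1 had 4 such maxima, at 21, 45, 70 and 92 nt, spaced by 24, 25 and 22 nt. Its second maximum, at 2.19% of tags per nt, was 3.84 times the trough at 32 nt, and the third was 1.63 times the trough at 58 nt. act-3 had 3, at 22, 46 and 70 nt, each within 1 nt of a maximum of act-1, with lower ratios of 1.73 at 46 nt and 1.20 at 70 nt.

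The other 3 actin genes had their maxima elsewhere. act-4 had maxima at 35, 60 and 88 nt, with the highest, at 88 nt, 1.54 times the trough at 69 nt. act-2 had maxima at 58 and 84 nt, and act-5 at 58 and 79 nt. The tags of all other genes had maxima at 34 and 54 nt, of which the one at 54 nt was lost with a 7 or 9 nt running mean. The first maximum of all other genes, at 34 nt, therefore fell near the deepest troughs of act-3, at 31 nt, and of act-1, at 32 nt.

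**Figure D3:**
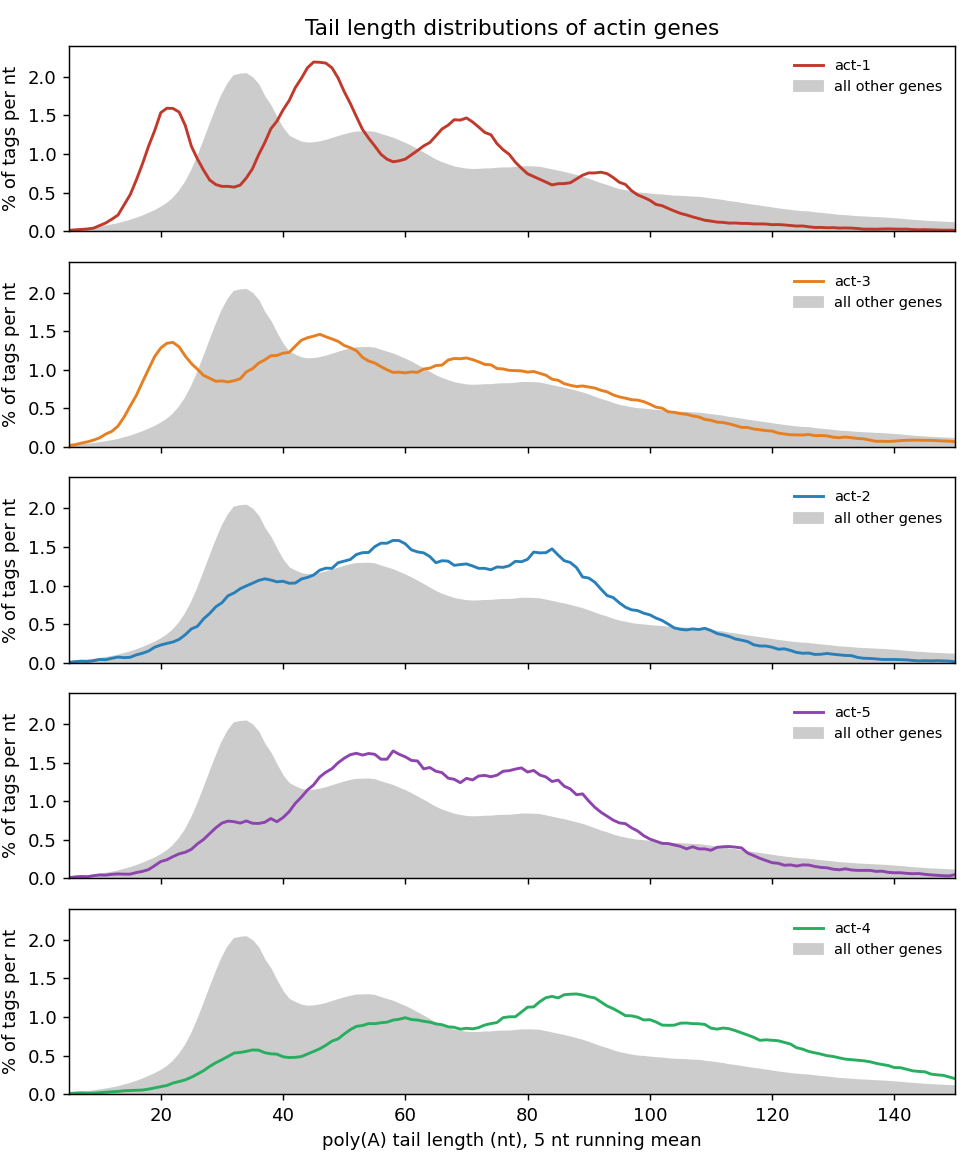
Percent of a gene's tags per nt (vertical axis, 5 nt running mean) against tail length in nt, 1 panel for each actin gene in colour, with the tags of all other genes as grey area. act-1 and act-3 share maxima near 21, 45 and 70 nt, in places where the grey area has no maximum; act-4 has its highest maximum at 88 nt.

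This offset was uncommon in the table. A simple measure was the number of tags at 19 to 24 nt over the number at 31 to 36 nt, windows picked after the act-1 distribution was seen. The ratio was 2.30 in act-1 (2368 over 1030 tags) and 1.40 in act-3 (2641 over 1885 tags). It was 0.347 in act-5, 0.262 in act-2 and 0.242 in act-4, against 0.193 in the tags of all other genes. Of the 2051 genes with at least 1000 tags, 0.975% (20 genes, act-1 and act-3 among them) had more tags in the shorter window. act-1 ranked 1 and act-3 ranked 3. Between them came cgh-1, a gene for a DDX6-family RNA helicase, at 1.49 with 2030 tags, named after its values were seen.

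The same offset, in the same tags, was read over the whole pattern of rises and falls, by a measure chosen after the data were seen. For each gene with at least 5000 tags the 5 nt running mean was divided by a 41 nt running mean, which removes the overall slope, and the pattern was correlated over 96 lengths with that of all other genes' tags. Neighbouring lengths share tags through the smoothing, so no p-value is given. Pearson's r was -0.68 for act-1 and -0.62 for act-3, 0.52 for act-5, 0.78 for act-2 and 0.84 for act-4. The 443 other genes had a median r of 0.83, and their lowest value was -0.34, in acaa-2. Of all 448 genes, 1.79% had an r below 0. None of the 443 other genes had an r as low as act-1 or act-3. The comparison is not an equal one, since the reference holds the tags of each of the 443 genes and no actin tags. It is also weighted towards the most abundant genes.

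**Figure D4:**
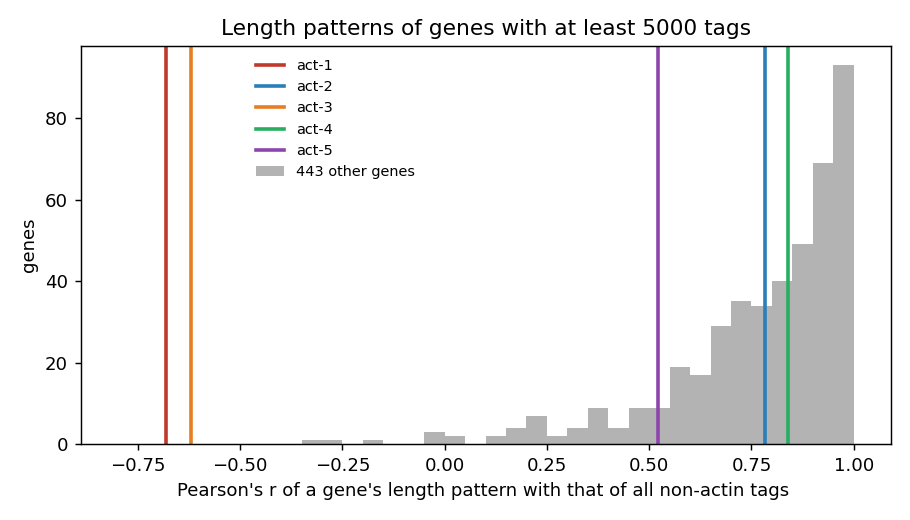
Number of genes (vertical axis) by Pearson's r between a gene's smoothed, slope-corrected length pattern and that of all non-actin tags (horizontal axis), for genes with at least 5000 tags. Coloured lines are the 5 actin genes and grey bars the 443 other genes. act-1 and act-3 lie at -0.68 and -0.62, below every grey bar; act-2, act-4 and act-5 lie among them.

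act-3 and act-1 were each other's closest match by this pattern, with r = 0.90. The next gene was far less like either: F16B4.4, at 0.47 with act-3 and 0.32 with act-1. After it came unc-27 for act-3, at 0.46, and hmg-1.1 for act-1, at 0.27. Within the family, act-4 and act-2 had an r of 0.91, act-5 and act-2 of 0.84 and act-5 and act-4 of 0.76, while all 6 pairs that join act-3 or act-1 with one of these genes were negative, from -0.69 to -0.26. The pattern correlated best with itself at a lag of 25 nt in act-1 (0.91) and in act-3 (0.79), and at 26 nt in act-4 (0.72) and in the tags of all other genes (0.69). In act-2 and act-5 the self-correlation was low, at 0.29 and 0.12. These genes had 7674 and 7831 tags, far fewer than act-1, act-3 and act-4. The part of tag number in the low values was not tested.

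The lists of act-3 and act-1 differ in length, with 33367 and 25537 tags. The longest run of consecutive tail values found in both lists was 4, the same as in each of the other 9 pairs. The run length depends on the order of the lists, whose meaning is unknown, so tags shared in another order would be missed. It also does not bear on tags that were assigned to 1 of 2 near-identical genes, and no conclusion is drawn from it. The sources used here do not say whether A residues encoded just before the tail are counted in its length, and such counting would move the maxima, medians and short-tail shares of a gene. The cause of the common pattern was not tested.

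Genes most like each actin gene were sought over the whole distribution, among the 2051 genes with at least 1000 tags, by the smallest value of the largest cumulative gap. For act-3 the closest was unc-27, which encodes a troponin I of body wall muscle and so a thin filament protein, with a gap of 2.80 points and a median of 57 nt. The next were exl-1 and hsp-17. For act-1 no gene came as close: the nearest were the cuticle collagen gene col-159, at 5.19 points, the importin gene imb-3 and the glutathione S-transferase gene gst-10. For act-2 they were the proteasome subunit gene pbs-2, at 1.59 points, the fatty acid desaturase gene fat-2 and dct-16. For act-4 they were F09F7.6, at 1.91 points, the prolyl-tRNA synthetase gene pars-1 and F45D3.4, all with medians of 87 nt. For act-5 they were K12H4.5, at 1.71 points, Y48A6B.3 and the glutathione S-transferase gene gst-5.

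Genes whose products bind or assemble actin were read from 3 lists. The thin filament list holds 17 genes of the sarcomere, all with at least 100 tags, and its median was 75 nt, against 80 nt over all genes. Of these 13 had intervals below the median over genes, 2 above and 2 that included it, where 36.7% of all genes were below and 35% above. With at least 400 tags, where the median over genes was 76 nt, 8 of 16 were below and 2 above, against 39% and 40.7% of all 4454 such genes. The 17 genes had a median of 3288 tags, against 405 for all genes with at least 100 tags. These shares are therefore not matched for abundance, and abundant genes in this table tend to have short tails. The most abundant was pat-10, a troponin C gene, with 92518 tags and a median of 75 nt, followed by the tropomyosin gene lev-11, with 22251 tags and also 75 nt. The shortest was unc-27 at 57 nt (57 to 58 nt) and the longest unc-94, a tropomodulin gene, at 96 nt (90 to 101 nt). act-1, at 52 nt, was shorter than all 17, and act-4, at 87 nt, was longer than 15 of them. act-3 lay 1 nt above unc-27.

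Actin regulators, such as cofilin, profilin, capping protein and the Arp2/3 complex, control filament assembly. Of the 50 genes in this list 47 were listed and 44 had at least 100 tags. Their median was 81 nt, with 12 genes below, 13 above and 19 including the median over genes, both smaller shares than over all genes. With at least 400 tags 5 of 26 were below and 15 above, against 39% and 40.7% of all such genes. The cofilin gene unc-60 was the most abundant, with 16505 tags and a median of 77 nt (76 to 78 nt). It was followed by erm-1, which encodes an ezrin-family protein that links actin to membranes, with 4438 tags and 73 nt. The range ran from unc-78, a gene for an actin-interacting protein that aids filament disassembly, at 59 nt (56 to 65 nt), to the formin gene fhod-1 at 111 nt (102 to 125 nt). By median act-1 and act-3 were shorter than all 44, although the interval of unc-78 held the median of act-3. The list shares 4 genes with the thin filament list.

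Actin-related proteins resemble actin in fold and work in other complexes. All 6 genes in that list had at least 100 tags, between 414 and 1599, far fewer than any actin gene. Their median was 74 nt, with 4 genes below and 2 above the median over genes, against 36.7% and 35% of all genes. Where at least 400 tags were asked of all genes, 2 of 6 were below and 2 above, against 39% and 40.7% of all such genes. Counts this small are not read as a trait of the list. The most abundant were arp-1, the dynactin subunit gene, at 72 nt (69 to 73 nt), arx-2, an Arp2/3 complex gene, at 73 nt (70 to 75 nt), and the chromatin remodelling gene swsn-6 at 75 nt (72 to 79 nt). The list ran from arp-6 at 70 nt to arp-11 at 88.5 nt, so by median act-1, act-2, act-3 and act-5 were shorter than all 6, although the interval of arp-6, 63 to 77 nt, held the shared median of act-2 and act-5.

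**Figure D5:**
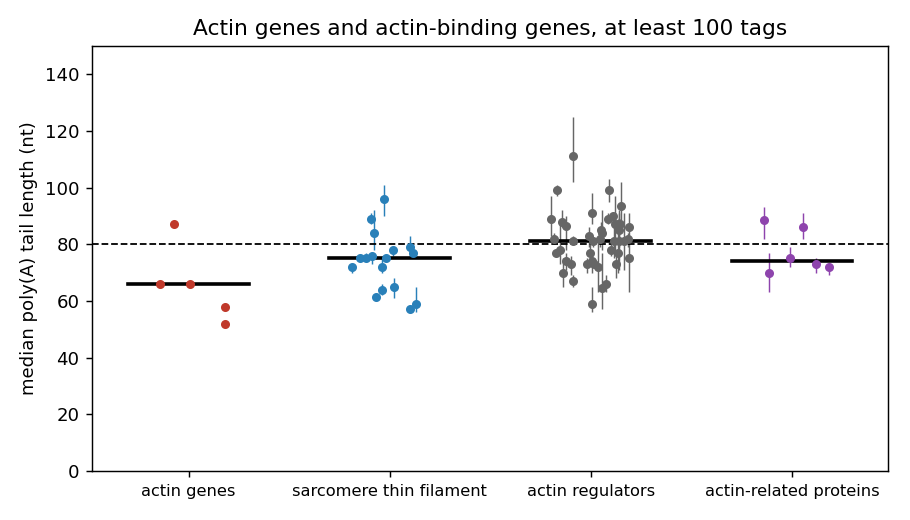
Median tail length in nt (vertical axis) of the 5 actin genes and of the genes with at least 100 tags in 3 lists: 17 thin filament genes, 44 actin regulators and 6 actin-related proteins. Points are genes with 95% order-statistic intervals, thick bars are list medians of 66, 75, 81 and 74 nt, and the dashed line is the median over genes, 80 nt. act-1 and act-3 lie at 52 and 58 nt, at the low end of all 4 groups.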

How the data were processed

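Whole-worm RNA of 2 replicates was ligated to a 3′ adapter with a splint oligonucleotide, cut with RNase T1 and size-selected at 250 to 1000 nt, per the labels' protocols. It was read on a MiSeq with 51 and 251 cycles, and tails were called with tailseeker2. STAR and bedtools were also used, per the submitters' processing notes; the sources used here do not give their roles or versions, the genome build or any collapsing of tags. The deposited counts are tags per gene, not normalized, and the deposited list gives every tag's tail length in nt. The other deposited columns, in nt, equalled the values recomputed from that list in all 13601 genes.

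Medians have exact order-statistic intervals, shares Wilson intervals (95%), and levels are tags per 1000000 tags. Computation used Python 3.11.15, numpy 2.4.6 and scipy 1.17.1, and was tested on simulated data. Lists used symbols of the table or, by sequence name, of RefSeq (13549 genes matched). Named genes are the 5 actin genes, the 3 genes most like each, in each list the shortest, the longest and the 2 most abundant genes, and the 3 most abundant actin-related genes. The members and lists were chosen with earlier results of these data known. The minimum of 100 tags was varied, as were the summary of the tails and the smoothing.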

Additional observations from a re-analysis of the deposited data

How the results depend on the processing

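Without a column for the replicates, leaving out each replicate was not run, and no paired analysis was possible because there is 1 group and no test. With means in place of medians the values of act-1 to act-5 were 56.6, 67.7, 62.0, 88.6 and 69.7 nt, and with means of log2(tail + 1) 50.3, 62.5, 53.8, 80.8 and 64.1 nt. With tails of at least 30 nt the medians were 60, 68, 66, 88 and 68 nt, and with tails of at least 20 nt those of act-1 and act-3 were 54 and 61 nt. Direction held in all 9 differences that exceeded counting error, but with tails of at least 30 nt act-5 minus act-3 was 2 nt and act-3 minus act-2 was -2 nt, both within counting error. act-5 exceeded act-2 by 1.93 nt with means and by 1.67 nt with means of log2(tail + 1), both beyond counting error. With 90 nt in place of 100 nt as the limit for long tails, the shares of act-1 to act-5 were 10.9, 17.96, 17.9, 44.97 and 19.1%, and with 120 nt they were 1.56, 2.80, 4.44, 17.5 and 4.43%.

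With genes of at least 400 tags, where the median over genes was 76 nt, 5 of 26 actin regulators lay below it and 15 above, 8 of 16 thin filament genes below and 2 above, and 2 of 6 actin-related genes below and 2 above. Of all 4454 such genes 39% lay below and 40.7% above. With at least 100 tags the counts were 12 and 13, 13 and 2, and 4 and 2, against 36.7% and 35% of all 8803 genes. The actin counts did not change under any minimum, the 99% interval or tails of at least 20 nt. With total variation distance 7 of the 15 most alike genes were the same, and with at least 500 tags 12 were.

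With a 7 or 9 nt running mean the highest maximum of each actin gene moved by at most 2 nt. At 9 nt the maxima of act-4 at 35 nt and of act-5 near 79 nt no longer met the 10% rule, and at 7 and 9 nt neither did that of all other genes at 54 nt. With a 31 nt or 51 nt baseline, or a 9 nt running mean, r with all other genes lay between -0.77 and -0.52 for act-1 and between -0.77 and -0.42 for act-3, and stayed positive in the other 3 actin genes. These measures were chosen after seeing the data. Each actin gene had at least 7674 tags, while the spread between replicates is unknown.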

Other observations

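Tail lengths varied along the order of the tags in a gene's deposited list, and the sources used here do not say what the order stands for. Each list was divided into 10 equal stretches, which are not replicates. In act-2 the medians of the stretches were 75, 69, 59 and 51 nt, then 86, 79, 72, 61, 54 and 50 nt, so that 2 descending series followed each other. In act-4 they were 73, 75, 82 and 97 nt, then 75, 73, 80, 86, 97 and 115.5 nt, a second series that fell by 2 nt at first and then ascended. act-3 had its highest stretch at 85 nt and its lowest at 45 nt, and act-1 ranged between 48 and 68 nt. act-5 varied least, between 63 and 74 nt.

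The range between the highest and lowest stretch was 42.5 nt in act-4, 40 nt in act-3, 36 nt in act-2, 20 nt in act-1 and 11 nt in act-5, against a median of 29 nt in the 443 other genes with at least 5000 tags. More tags at 19 to 24 nt than at 31 to 36 nt were found in 9 of 10 stretches of act-1 and in 8 of 10 of act-3. This held in 0 of 10 stretches of act-2, act-4 and act-5. The windows were picked after the act-1 distribution was seen, and the stretches divide those same tags. These counts are therefore no further support for the offset, and they were not computed for other genes. In the last stretch of act-1, where the median was 68 nt, the numbers were 46 and 53 tags. The part of list order in the differences between actin genes was not tested.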
